A study of Mus musculus with 10 samples.

Results

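The small nucleolar RNAs (snoRNAs) and small nuclear RNAs (snRNAs) of effector memory (EM) γδ T cells were followed in the spleens of 5 *P. chabaudi* pre-exposed mice and 5 naïve mice. They were taken as every gene in the count table whose symbol is Snord, Snora, Scarna or Rnu followed by a number and, where more follows, by letters or digits alone, and which had at least 10 counts summed over the 10 libraries. Of 137 such symbols, 102 passed, out of 27179 genes in the table. *Rnu2-10*, a gene of the U2 snRNA, has a hyphen in its symbol and is not among them. A further 17 had no count in any library and 18 had 1 to 9 counts. Just inside the minimum were *Snord70*, *Snora5c*, *Snord1c* and *Scarna9* with 10 counts each, and just outside it *Snora43*, *Snord23*, *Snord67* and *Rnu1b1* with 9 counts each. The 102 comprise 61 C/D box snoRNAs (the U3 genes *Rnu3a* and *Rnu3b1* to *Rnu3b4* among them), 30 H/ACA box snoRNAs, 5 small Cajal body RNAs (scaRNAs) and 6 snRNAs.

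The pre-exposed mice were female C57BL/6 mice, 6 to 8 weeks old, infected intravenously with 50000 red blood cells carrying *P. chabaudi*, treated with chloroquine and pyrimethamine from day 14 and killed 12 weeks after treatment had ended. The naïve mice were of the same sex, strain and age and received the same drugs without infection, so that both groups carry the drug treatment. The sort took CD62L- CD44+ γδ T cells of the spleen, which had not been restimulated, and each mouse gave 1 library. The question put to the cells was whether a cleared infection leaves a lasting change in their transcripts.

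C/D box snoRNAs direct the methylation of ribose in ribosomal RNA (rRNA), H/ACA box snoRNAs direct the conversion of uridine to pseudouridine, and scaRNAs do both to snRNAs. A few C/D box snoRNAs, U3, U8 and U13 among them, are needed for the cutting or acetylation of rRNA, and are transcribed from promoters of their own, as are the snRNAs of the spliceosome. Most others are cut out of the introns of host genes, which in mammals are often genes of ribosomal proteins or translation factors. Mature snoRNAs have no poly(A) tail, and a count here is a read pair over the span of the gene, which does not separate the mature RNA from a precursor or from a host's intron.

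The sequences of some of the RNAs described here are shown first, as DNA letters in 5′ to 3′ order, from the GENCODE annotation of GRCm38 (mm10), in which 101 of the 102 had an entry. *Snord118* (U8, chr11:69073427-69073561, plus strand) and *Snord72* (chr15:5118404-5118484, plus strand) are C/D box snoRNAs, and capitals mark the C box, searched as TGATGA, and the D box, searched as CTGA in the last 15 bases. *Snora64* (chr17:24720772-24720905, plus strand) is an H/ACA box snoRNA, and capitals mark its ACA box.
Snord118: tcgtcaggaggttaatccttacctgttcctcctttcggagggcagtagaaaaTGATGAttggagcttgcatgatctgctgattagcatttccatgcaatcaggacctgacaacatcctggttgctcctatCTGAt
Snord72: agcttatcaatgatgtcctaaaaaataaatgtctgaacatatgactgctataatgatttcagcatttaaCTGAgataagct
Snora64: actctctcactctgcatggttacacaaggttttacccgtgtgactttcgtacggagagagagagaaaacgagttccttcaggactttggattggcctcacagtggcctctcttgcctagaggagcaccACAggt

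On the transcribed strand, the D box letters stood in the last 15 bases of 55 of 60 C/D box members with a sequence (91.7%) and the C box letters anywhere in 42 (70.0%). *Snord72* holds the D box letters there but not the exact C box letters. In H/ACA box members the D box letters stood there in 1 of 30 and the C box letters in 0 of 30, whereas ACANNN ended 25 of 30 (83.3%). Of 32851 promoter windows from RefSeq (GRCm38.p6), read on the strand of their gene over 104 bases (the median member length), 6.14% held the D box letters in the last 15 bases, 2.10% the C box letters and 1.78% the ACA ending. The letters of both boxes can overlap where a C comes before the C box.

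The U3 genes are shown because their copies cannot all be counted apart. *Rnu3a* (chr10:40258467-40258679, plus strand) and *Rnu3b1* (chr11:87443237-87443451, plus strand) were aligned end to end, and capitals mark the bases that differ or have no partner in the other.
Rnu3a: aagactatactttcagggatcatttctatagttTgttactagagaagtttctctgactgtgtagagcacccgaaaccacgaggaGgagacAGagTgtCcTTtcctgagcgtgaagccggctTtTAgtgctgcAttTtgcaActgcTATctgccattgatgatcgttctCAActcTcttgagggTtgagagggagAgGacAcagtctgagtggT
Rnu3b1: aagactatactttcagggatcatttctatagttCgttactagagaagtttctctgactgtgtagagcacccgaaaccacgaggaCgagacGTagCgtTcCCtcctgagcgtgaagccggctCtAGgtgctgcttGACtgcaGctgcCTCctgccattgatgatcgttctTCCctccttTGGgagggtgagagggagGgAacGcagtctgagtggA

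*Rnu3a* and *Rnu3b1* were identical at 187 of 218 aligned positions (85.8%), with most of the differences in the 3′ part. *Rnu3b1*, *Rnu3b2* and *Rnu3b3* were identical to each other over 215 bases, and *Rnu3b4* differed from each of them by 1 position. The values of the separate *Rnu3b* copies are therefore uncertain, since the split of their reads depends on how the aligner placed them. *Rnu3a* was counted over 104 bases, less than its annotated 213.

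Total counts ranged from 8747888 to 22542832 in pre-exposed mice and from 6587199 to 19993444 in naïve mice. Pre-exposed mice 2 to 4 differed from the other 7 libraries in that their label descriptions give no index pair, and in their deviations from the gene means against gene length (Spearman's rho across 12655 genes of -0.536, -0.422 and -0.239, against -0.136 to 0.413 in the other 7). Pre-exposed mouse 5 had 24.7% of its counts in its 10 highest genes, against 5.61% to 10.2% in the other 9 libraries. The γδ T cell markers (7 genes, 1 higher) summed to 5162 to 13370 CPM in pre-exposed mice and 6650 to 10060 CPM in naïve mice. These 7 were *Trdc*, *Cd3e*, *Cd3d*, *Cd3g*, *Cd247*, *Cd44* and *Il7r*, and all but *Trdc* are also expressed by αβ T cells. The monocyte and macrophage markers (5 genes, 3 higher) summed to 41.8 to 1361 CPM in pre-exposed mice and 32.0 to 151 CPM in naïve mice, and the erythroid markers (5 genes, 3 higher) to 261 to 1726 CPM in pre-exposed mice and 62.1 to 353 CPM in naïve mice. The αβ T cell markers (4 genes, 1 higher) summed to 290.7 to 685.5 CPM in pre-exposed mice and 166.3 to 286.5 CPM in naïve mice, without overlap, and the dendritic cell markers (5 genes, 2 higher) to 64.7 to 328 CPM in pre-exposed mice and 57.2 to 82.6 CPM in naïve mice, with pre-exposed mice 1 to 4 above every naïve mouse. The B cell markers (5 genes, 2 higher) summed to 43.2 to 132.7 CPM in pre-exposed mice and 42.29 to 97.25 CPM in naïve mice. Those of naïve or central memory T cells (3 genes, 0 higher) summed to 130.1 to 339.9 CPM and 188.0 to 263.8 CPM. Of all genes tested, 5.12% were higher. Immunoglobulin genes took 0.345% to 6.68% of the counts in pre-exposed mice and 0.0845% to 0.737% in naïve mice. The part of these markers in the results was not tested. CPM are counts divided by the TMM-scaled library size and multiplied by 1e6. The TMM factor was 0.68 in pre-exposed mouse 5, against 0.9988 to 1.107 in the other 9 libraries, which raises every CPM of that mouse. In such bulk samples, a different share of cells of a type and a different amount of RNA per cell cannot be told apart.

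The 102 small RNAs together took 0.0177% to 0.0399% of the counts in pre-exposed mice and 0.0146% to 0.0171% in naïve mice. Their summed level was 321 ± 180 CPM in pre-exposed mice and 168 ± 16.7 CPM in naïve mice (SD, n = 5 each). The 13 genes of U3, U8, U13 and the snRNAs summed to 177 ± 161 CPM in pre-exposed mice and 37.5 ± 8.55 CPM in naïve mice (SD, n = 5 each). By mouse, they had 42.4, 120, 93.7, 179 and 451 CPM in pre-exposed mice 1 to 5, against 33.8, 50.9, 35.9, 39.0 and 27.7 CPM in naïve mice 1 to 5. Pre-exposed mice 2 to 5 lay above every naïve mouse in this sum and pre-exposed mouse 1 within the naïve range. The 54 other C/D box snoRNAs summed to 67.2 to 120 CPM in pre-exposed mice and 58.7 to 82.4 CPM in naïve mice, and the 30 H/ACA box snoRNAs to 40.8 to 75.0 CPM in pre-exposed mice and 50.7 to 71.9 CPM in naïve mice. Both of these ranges overlap between the groups.

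**Figure D1:**
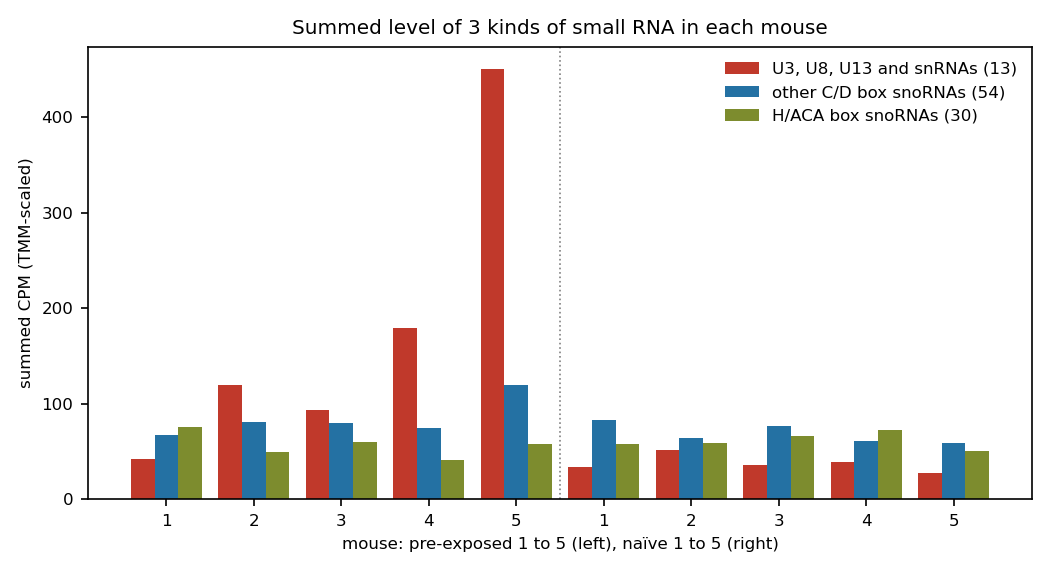
Summed level (CPM, TMM-scaled) of the 13 genes of U3, U8, U13 and the snRNAs, of the 54 other C/D box snoRNAs and of the 30 H/ACA box snoRNAs, with 1 bar per kind and mouse. The first kind reaches 451 CPM in pre-exposed mouse 5 and stays at or under 50.9 CPM in the 5 naïve mice, while the other kinds overlap between the groups.

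Of the 102 small RNAs, 36 had enough counts to be tested: 21 C/D box snoRNAs, 13 H/ACA box snoRNAs, 2 snRNAs and no scaRNA. Of these 36, 5 were higher in pre-exposed mice and 0 were lower at an adjusted p under 0.05 (edgeR's quasi-likelihood test, Benjamini-Hochberg over 12655 genes), beside 5.12% higher and 1.18% lower among all genes tested. At an unadjusted p under 0.05, 13 were higher and 1 was lower, beside 15.6% and 8.74% of all genes. The median log2 fold change of the 36 was 0.69, and that of all genes tested was 0.02. A small RNA could pass the filter through one group alone, so these figures describe the 36 and not the 102. With every gene of 10 or more counts in the fit, 5 of the 102 were higher and 2 were lower, beside 4.09% and 1.07% of all genes in that fit, and the median was 0.55.

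The 5 that rose were *Snord13*, *Rnu3a*, *Rnu3b1* and *Rnu3b4*, all of which have their own promoters, and *Snord14a*, which lies in a ribosomal protein gene. *Snord13*, the U13 snoRNA, is known from human cells to guide the acetylation of small-subunit rRNA. It had 7.70, 38.2, 15, 45.4 and 120 CPM in pre-exposed mice 1 to 5, against 3.89, 7.60, 4.84, 5.32 and 3.03 CPM in naïve mice 1 to 5. The groups did not overlap, though pre-exposed mouse 1 (81 counts) was close to naïve mouse 2 (147 counts, in a deeper library). The change was the largest of the 36 (log2 fold change 3.14 ± 0.60 (SE), edgeR adjusted p = 0.0141).

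U3 binds the precursor of rRNA and is needed for the early cuts that release the small-subunit rRNA. *Rnu3a* had 4.85, 14.2, 7.96, 19.6 and 50.9 CPM in pre-exposed mice 1 to 5, against 2.28, 3.10, 3.83, 2.13 and 2.75 CPM in naïve mice 1 to 5. Again no pre-exposed mouse overlapped the naïve range (log2 fold change 2.72 ± 0.56 (SE), edgeR adjusted p = 0.0187). *Rnu3b1* had 8.28, 13.6, 17, 27.3 and 54.1 CPM in pre-exposed mice 1 to 5, against 5.28, 8.17, 4.78, 8.39 and 4.91 CPM in naïve mice 1 to 5. Here pre-exposed mouse 1 lay within the naïve range and the other 4 lay above it (log2 fold change 1.90 ± 0.45 (SE), edgeR adjusted p = 0.0295).

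*Rnu3b4* had 8.37, 14.5, 17.6, 27.7 and 58.5 CPM in pre-exposed mice 1 to 5, against 7.34, 9.05, 6.12, 6.03 and 6.94 CPM in naïve mice 1 to 5, with the same overlap in pre-exposed mouse 1 (log2 fold change 1.80 ± 0.44 (SE), edgeR adjusted p = 0.0326). The 2 remaining copies, named after their values were seen, did not pass the threshold, *Rnu3b2* with a log2 fold change of 1.88 (adjusted p = 0.0569) and *Rnu3b3* with 1.41 (adjusted p = 0.112). Since the copies are nearly the same sequence, their sum with *Rnu3a* is the safer value. It was 27.9, 57.4, 62.5, 106 and 238 CPM in pre-exposed mice 1 to 5, against 25.1, 33.6, 23.9, 23.3 and 20.5 CPM in naïve mice 1 to 5. In this sum, too, pre-exposed mouse 5 was the highest and pre-exposed mouse 1 within the naïve range.

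**Figure D2:**
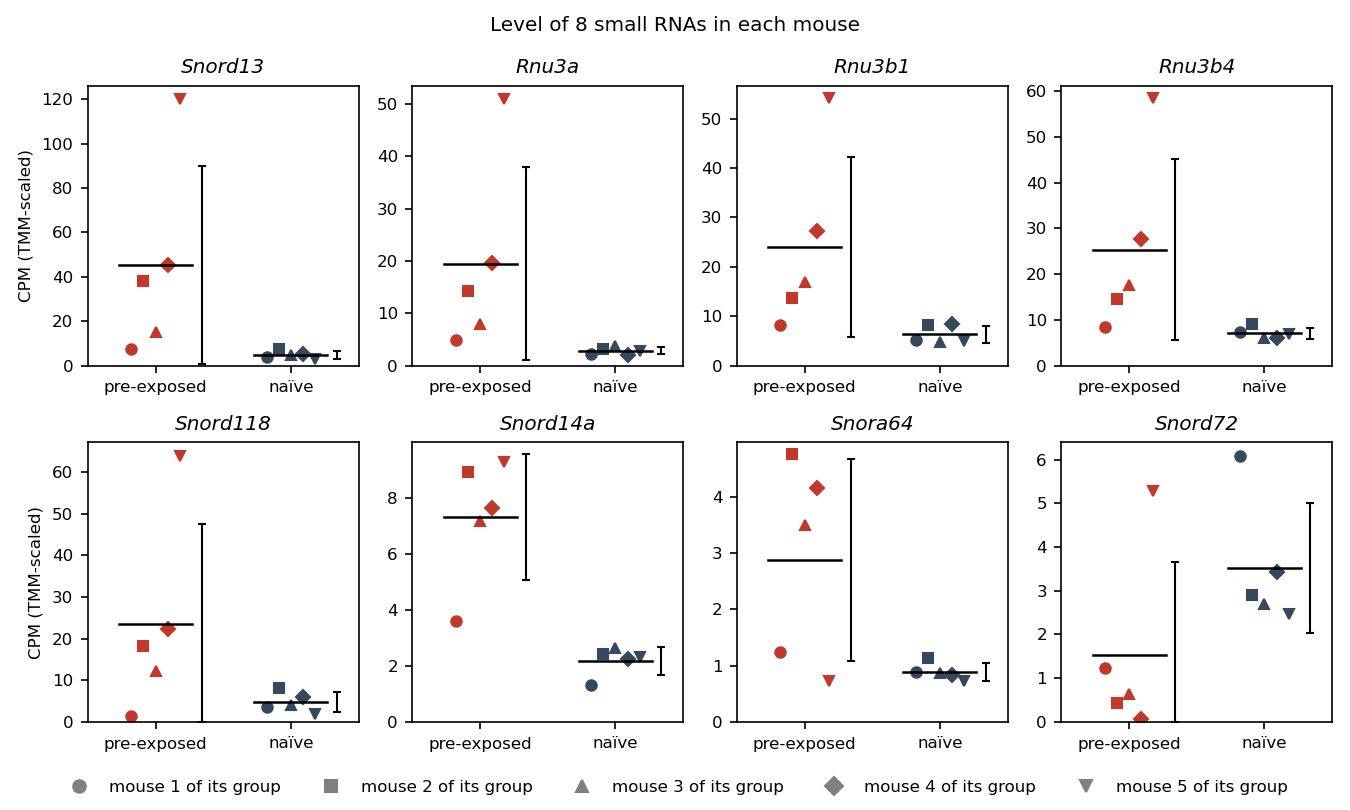
Level (CPM, TMM-scaled) of 8 small RNAs in each mouse, with 1 point per mouse, a line at the mean and a bar of ± 1 SD beside it, cut at 0 where it would reach below. *Snord13*, *Rnu3a* and *Snord14a* do not overlap between the groups, and *Snord72* is at or under 1.24 CPM in pre-exposed mice 1 to 4 but 5.27 CPM in pre-exposed mouse 5.

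U8 and the snRNAs had values in the same direction without passing the threshold of the edgeR test. DESeq2 called 7 small RNAs, all higher, beside 7.97% of all genes: the same 5, *Snord118* (adjusted p = 0.0092) and *Rnu3b2* (adjusted p = 0.0104). *Snord118* (U8, named after its values were seen), which is known from frog and human cells to act in the maturation of large-subunit rRNA, had 1.52, 18.2, 12.1, 22.3 and 63.9 CPM in pre-exposed mice 1 to 5, against 3.67, 8.07, 4.04, 6.03 and 1.88 CPM in naïve mice 1 to 5 (log2 fold change 2.24 ± 0.66 (SE), edgeR adjusted p = 0.0567). Pre-exposed mice 2 to 5 lay above the naïve mice, and pre-exposed mouse 1 below all of them. *Rnu5g*, a gene of the U5 snRNA that holds the exons together during splicing, had 2.00, 1.12, 1.03, 0.902 and 6.18 CPM in pre-exposed mice 1 to 5, against 0.220, 0.103, 0.807, 1.30 and 0.433 CPM in naïve mice 1 to 5 (log2 fold change 1.85 ± 0.74 (SE), edgeR adjusted p = 0.136).

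*Rnu1a1*, a gene of the U1 snRNA that recognizes the 5′ splice site, had 1.81, 1.95, 0.955, 0.902 and 5.45 CPM in pre-exposed mice 1 to 5, against 0.294, 0.620, 1.08, 2.01 and 0.722 CPM in naïve mice 1 to 5 (log2 fold change 1.12 ± 0.63 (SE), edgeR adjusted p = 0.291). In both snRNAs, pre-exposed mouse 5 was far above the other mice of its group and the groups overlapped. Of the 9 tested genes of U3, U8, U13 and snRNAs, 4 were called, all higher, 8 had an unadjusted p under 0.05, and all 9 log2 fold changes were above 0 (1.12 to 3.14, median 1.88). The U3 genes make up 5 of these 9, with 3 of the 4 calls and 5 of the 8 at an unadjusted p under 0.05. Reads of their *Rnu3b* copies cannot be told apart, so the 9 are not independent of each other. The group was set by gene name, with earlier results of these data known. *Snord104*, *Scarna2*, *Scarna17* and *Snora17*, also without a containing gene, were left outside it. The 27 other tested small RNAs had 1 call, 18 log2 fold changes above 0 and a median of 0.48. Among all genes tested, 5.12% were called higher, 15.6% were higher at an unadjusted p under 0.05 and 51.3% had a log2 fold change above 0.

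The snRNAs of low counts, *Rnu7*, *Rnu11*, *Rnu12* and *Rnu1b2*, were not tested and were named after their values were seen. *Rnu7*, the U7 snRNA that acts on the 3′ ends of histone transcripts, had 3, 39, 10, 9 and 55 counts in pre-exposed mice 1 to 5, against 5, 7, 9, 3 and 3 counts in naïve mice 1 to 5. *Rnu11*, a snRNA of the minor spliceosome, had 2, 16, 11, 26 and 20 counts in pre-exposed mice 1 to 5, against 0, 3, 6, 1 and 2 counts in naïve mice 1 to 5. *Rnu12* had 10, 17, 5, 15 and 12 counts in pre-exposed mice 1 to 5, against 3, 5, 3, 5 and 2 counts in naïve mice 1 to 5. For *Rnu1b2* these were 1, 2, 1, 0 and 7 counts, against 1, 2, 0, 0 and 1 counts. In a fit without the usual filter on low counts, none passed the threshold (edgeR adjusted p = 0.116 for *Rnu7*, 0.0691 for *Rnu11*, 0.114 for *Rnu12* and 0.616 for *Rnu1b2*).

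**Figure D3:**
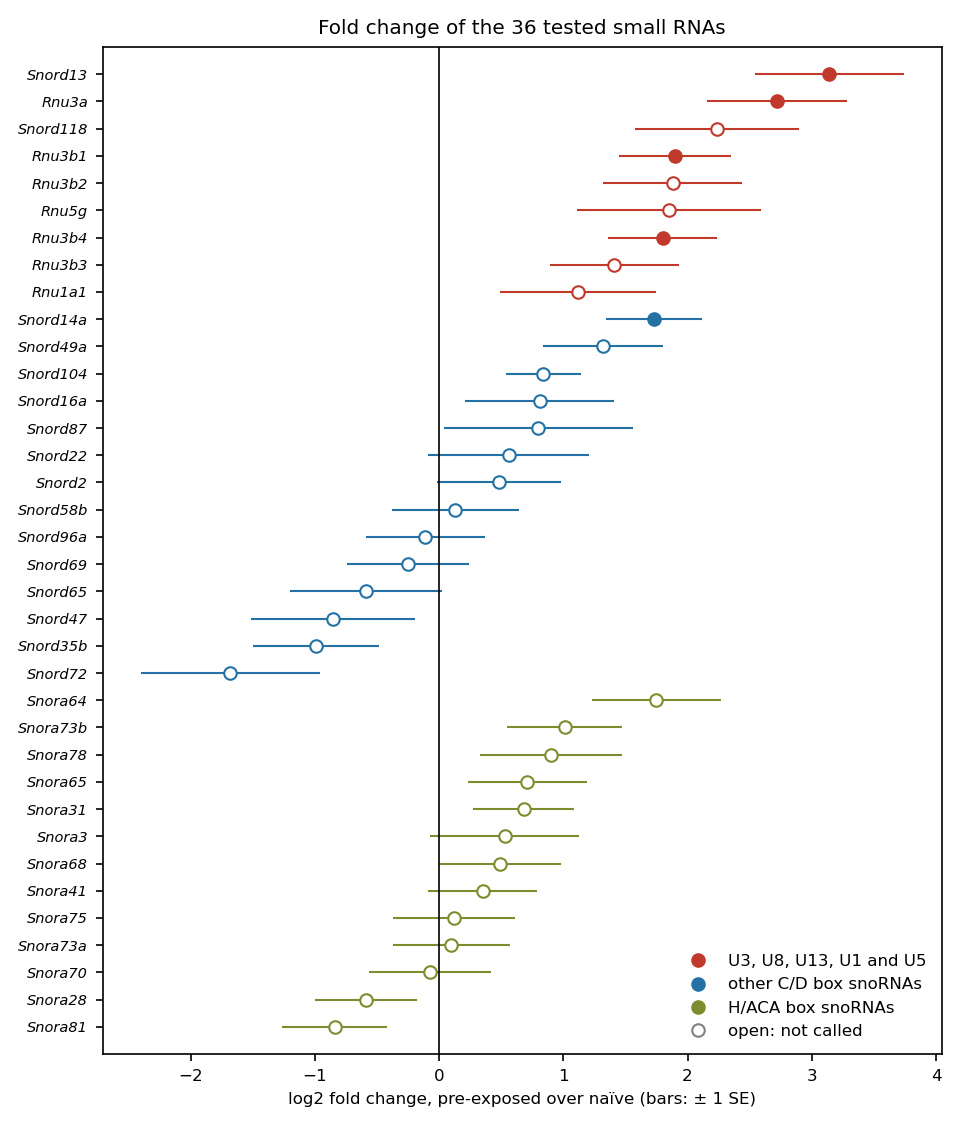
Log2 fold change (pre-exposed over naïve) of the 36 tested small RNAs with ± 1 SE, filled where the edgeR adjusted p was under 0.05. The 9 genes of U3, U8, U13, U1 and U5 lie at 1.12 to 3.14, and the other 27 spread from -1.68 to 1.75.

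Among the snoRNAs of introns, *Snord14a* (U14, which acts in the processing and methylation of small-subunit rRNA) was the one that rose. It had 3.61, 8.90, 7.16, 7.63 and 9.27 CPM in pre-exposed mice 1 to 5, against 1.32, 2.43, 2.62, 2.24 and 2.31 CPM in naïve mice 1 to 5. The groups did not overlap (log2 fold change 1.73 ± 0.39 (SE), edgeR adjusted p = 0.0238). It lies in *Rps13*, a gene of the small ribosomal subunit, and overlaps exons of transcripts of *Rps13* with a retained intron. *Rps13* had 26.3, 92.1, 64.7, 62.8 and 166 CPM in pre-exposed mice 1 to 5, against 27, 34.2, 29.5, 23 and 18.2 CPM in naïve mice 1 to 5 (log2 fold change 1.63 ± 0.38 (SE), edgeR adjusted p = 0.0284). Per 1000 host counts, *Snord14a* had 138, 96.7, 111, 122 and 55.8 counts in pre-exposed mice 1 to 5, against 48.9, 71, 89, 97.4 and 127 counts in naïve mice 1 to 5, so that the ratio of both overlapped between the groups. The annotated copies *Snord14c* and *Snord14e*, 78.5% and 82.6% identical to it, had too few counts to be tested.

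Of the 36, 4 had no overlap between the groups with pre-exposed mice higher, beside 2.77% of all genes tested, and 0 with pre-exposed mice lower, beside 2.17%. These were *Snord13*, *Rnu3a*, *Snord14a* and, named after its values were seen, *Snora73b*. *Snora73b* is a gene of U17, an H/ACA box snoRNA that acts in the cutting of rRNA, and had 2.09, 1.90, 4.38, 2.29 and 1.82 CPM in pre-exposed mice 1 to 5, against 1.32, 1.65, 1.01, 1.42 and 0.578 CPM in naïve mice 1 to 5. Its change did not pass the threshold (log2 fold change 1.01 ± 0.46 (SE), edgeR adjusted p = 0.192). Its copy *Snora73a*, 96.6% identical to it, had a log2 fold change of 0.10 (adjusted p = 0.917), and the reads of the pair may be split between them.

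No H/ACA box snoRNA was called, at a median log2 fold change of 0.49 over 13 tested. *Snora64* (named after its values were seen), which lies in *Rps2*, came nearest to the threshold. It had 1.24, 4.77, 3.50, 4.16 and 0.727 CPM in pre-exposed mice 1 to 5, against 0.881, 1.14, 0.874, 0.827 and 0.722 CPM in naïve mice 1 to 5 (log2 fold change 1.75 ± 0.52 (SE), edgeR adjusted p = 0.0567). Pre-exposed mice 2 to 4 were high, and pre-exposed mouse 5 was at the level of the naïve mice. The H/ACA box snoRNAs with the highest levels were *Snora28*, *Snora81*, *Snora31* and *Snora41*.

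*Snora28*, in the translation factor gene *Eif5*, had 38.4, 12, 20.9, 8.53 and 5.81 CPM in pre-exposed mice 1 to 5, against 26.4, 23.9, 29.7, 30.8 and 18.8 CPM in naïve mice 1 to 5 (log2 fold change -0.59 ± 0.41 (SE), edgeR adjusted p = 0.397). *Snora81*, in *Eif4a2*, had 14.2, 3.89, 5.81, 2.78 and 14 CPM in pre-exposed mice 1 to 5, against 12.4, 14.7, 13.8, 16.4 and 12.3 CPM in naïve mice 1 to 5 (log2 fold change -0.84 ± 0.42 (SE), edgeR adjusted p = 0.24). In *Snora81*, pre-exposed mice 2 to 4 lay below all naïve mice and pre-exposed mice 1 and 5 within their range. *Snora31*, in *Tpt1*, and *Snora41*, in *Eef1b2*, had log2 fold changes of 0.68 (adjusted p = 0.327) and 0.35 (adjusted p = 0.664), with overlapping groups. Among single C/D box genes, *Snord104*, for which no host was found, had the highest mean CPM over all libraries after *Snord13*. It had 14.8, 29.2, 21, 28.4 and 40 CPM in pre-exposed mice 1 to 5, against 11.7, 11.7, 20.2, 14.8 and 15.8 CPM in naïve mice 1 to 5 (log2 fold change 0.84 ± 0.30 (SE), edgeR adjusted p = 0.102).

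The most negative log2 fold changes were those of *Snord72*, *Snord35b*, *Snord47* and *Snora81*, none of which passed the threshold. *Snord72* had 1.24, 0.438, 0.637, 0.0694 and 5.27 CPM in pre-exposed mice 1 to 5, against 6.09, 2.90, 2.69, 3.43 and 2.46 CPM in naïve mice 1 to 5 (log2 fold change -1.68 ± 0.72 (SE), edgeR adjusted p = 0.165). Pre-exposed mice 1 to 4 lay below all naïve mice and pre-exposed mouse 5 among them. *Snord35b* had 3.99, 6.37, 2.23, 3.61 and 0 CPM in pre-exposed mice 1 to 5, against 6.16, 3.83, 7.06, 6.62 and 12.3 CPM in naïve mice 1 to 5 (log2 fold change -0.99 ± 0.51 (SE), edgeR adjusted p = 0.254). Its count of 0 in pre-exposed mouse 5 allows up to 3 counts at 95% confidence, for counting error alone.

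*Snord47*, one of the snoRNAs of *Gas5*, a host gene without a protein product, had 7.70, 0.681, 1.59, 0.486 and 7.63 CPM in pre-exposed mice 1 to 5, against 7.34, 3.98, 8.95, 4.84 and 3.03 CPM in naïve mice 1 to 5 (log2 fold change -0.85 ± 0.66 (SE), edgeR adjusted p = 0.453). Pre-exposed mice 2 to 4 lay below every naïve mouse, and pre-exposed mice 1 and 5 within the naïve range. *Snora34* and *Snord53*, named after their values were seen, were the 2 lower calls of the fit over all 102 small RNAs. *Snora34* had 5, 3, 3, 5 and 0 counts in pre-exposed mice 1 to 5, against 8, 30, 43, 16 and 1 counts in naïve mice 1 to 5 (log2 fold change -2.58 ± 0.71 (SE), edgeR adjusted p = 0.0397). *Snord53* had 4, 0, 2, 3 and 0 counts in pre-exposed mice 1 to 5, against 24, 30, 14, 7 and 2 counts in naïve mice 1 to 5 (log2 fold change -3.0 ± 0.81 (SE), edgeR adjusted p = 0.0370). Both had too few counts for the filter of the main test.

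Host genes were compared with their snoRNAs where exactly 1 gene of the count table contained the snoRNA on the same strand. This held for 87 of the 102, of which 9 also lie in another annotated gene without a row of its own in the table, so that its reads could not be followed. Of the 87, 42 overlap an annotated exon of the host and 45 lie inside introns. The *Rnu3b* copies and *Rnu1a1* lie within the span of *Tex14*, which was at 0 to 0.476 CPM in pre-exposed mice and 0 to 1.16 CPM in naïve mice. They have their own promoters and were left out here, as were *Rnu7* and its containing gene. In 24 pairs of 22 hosts, both genes were tested, and 16 of these snoRNAs overlap an annotated exon of the host, so that some reads could have fallen to either gene.

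Of the 22 hosts, 6 rose and 0 fell, beside 5.12% and 1.18% of all genes. Among them were *Rps13*, *Rps2*, *Rpl27a* and *Rpl37* of the ribosome and *2410006H16Rik*. The median log2 fold change of the 22 hosts was 0.86, and that of the 24 snoRNAs was 0.42. In 18 of the 24 pairs the host had the more positive change. Over the 10 pairs with a ribosomal protein gene, the medians were 0.51 for the snoRNAs and 1.09 for the hosts. The 22 hosts were counted over 183 to 8257 bases and the 24 snoRNAs over 55 to 164. Among all tested genes, the median was 1.19 at 219 to 600 bases (32.5% higher) and 0.39 at 601 to 2000 (9.22% higher). It was -0.18 over 2000 bases (1.67% higher), and 0.38 in genes of at most 218 bases other than small RNAs. With each library's trend on length removed, no host was called. The part of length in the gap between hosts and snoRNAs was not tested.

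The widest gap was that of *Snord72* and its host *Rpl37*, a gene of the large ribosomal subunit. *Rpl37* had 27.5, 86.3, 46.8, 67.5 and 155 CPM in pre-exposed mice 1 to 5, against 21, 25.9, 31.5, 22.3 and 20.5 CPM in naïve mice 1 to 5 (log2 fold change 1.65 ± 0.38 (SE), edgeR adjusted p = 0.0249). Per 1000 counts of *Rpl37*, *Snord72* had 45, 5.08, 13.6, 1.03 and 34 counts in pre-exposed mice 1 to 5, against 290, 112, 85.5, 153 and 120 counts in naïve mice 1 to 5. The ratio of *Snord72* to *Rpl37* was thus lower in every pre-exposed mouse than in any naïve mouse, pre-exposed mouse 5 included. Of the 24 pairs, the ratio was below the naïve range in all pre-exposed mice in 2 and above it in 0. The same shares were not computed for other pairs of genes.

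**Figure D4:**
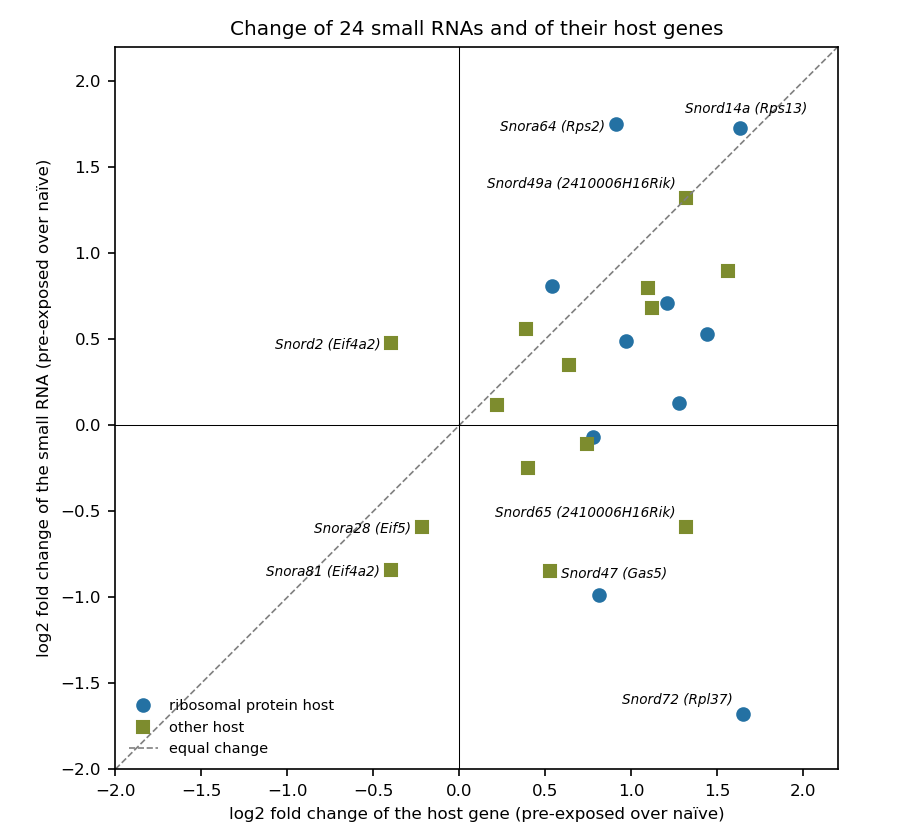
Log2 fold change (pre-exposed over naïve) of 24 snoRNAs against that of their host genes, with circles for ribosomal protein hosts, squares for others and a dashed line for equal change. Of the 24 points, 18 lie below the line, with *Snord72* in *Rpl37* the farthest (-1.68 and 1.65).

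snoRNAs of the same host could differ in sign. *Snord49a* and *Snord65* (named after their values were seen) both lie in *2410006H16Rik*, a host without a protein product, which rose (log2 fold change 1.32 ± 0.27 (SE), edgeR adjusted p = 0.0183). *Snord49a* had a log2 fold change of 1.32 (adjusted p = 0.109), and *Snord65* one of -0.59 (adjusted p = 0.594). *Snora81* and *Snord2* (named after its values were seen) both lie in *Eif4a2* (log2 fold change -0.40, adjusted p = 0.286) and had log2 fold changes of -0.84 and 0.48. The difference between snoRNAs of 1 host was not tested.

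The proteins that bind these RNAs were taken as a list of 73 genes for the assembly and function of snoRNPs and snRNPs, all of which were tested. Of these, 7 rose and 0 fell, beside 6.30% of all genes called in either direction. The median log2 fold change was 0.43, with 56 of 73 above 0, beside a median of 0.02 and 51.3% above 0 among all genes tested. The 7 were *Nop10*, a core protein of H/ACA box snoRNPs, *Snrpd2*, *Snrpf* and *Snrpg*, of the Sm ring around snRNAs, *Lsm2* and *Lsm7*, of the related Lsm ring, and *Snrnp25* of the minor spliceosome. They were counted over 393 to 1133 bases. Of all tested genes, 32.5% were higher at 219 to 600 bases and 9.22% at 601 to 2000 bases.

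*Lsm2* had 30.2, 86.4, 47.3, 57.1 and 48 CPM in pre-exposed mice 1 to 5, against 21.3, 21.4, 23.6, 23.7 and 20.4 CPM in naïve mice 1 to 5, without overlap (log2 fold change 1.29 ± 0.27 (SE), edgeR adjusted p = 0.0197). *Nop10* had 152, 445, 327, 301 and 808 CPM in pre-exposed mice 1 to 5, against 176, 179, 174, 146 and 132 CPM in naïve mice 1 to 5 (log2 fold change 1.33 ± 0.35 (SE), edgeR adjusted p = 0.0383), and pre-exposed mouse 1 lay within the naïve range. The other 5 had log2 fold changes of 0.98 to 1.55 (adjusted p of 0.0241 to 0.0443). Of the core proteins of C/D box snoRNPs, *Fbl*, the methyltransferase, had a log2 fold change of 1.01 (adjusted p = 0.0599), *Nop56* one of 0.39 (adjusted p = 0.361) and *Nop58* one of -0.02 (adjusted p = 0.977). For *Dkc1*, the pseudouridine synthase of H/ACA box snoRNPs, it was 0.15 (adjusted p = 0.679). These 4 were named after their values were seen.

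Gene length moved with the difference between the groups over the whole table. Genes of 219 to 600 bases had a median log2 fold change of 1.19 (n = 455, 32.5% higher), those of 601 to 2000 bases 0.39 (n = 3839, 9.22% higher) and those over 2000 bases -0.18 (n = 8268, 1.67% higher). The 36 small RNAs, counted over 55 to 218 bases, had the median of 0.69 given above (13.9% higher). The other 57 tested genes of at most 218 bases, 17 of them microRNA genes, had a median of 0.38 (5.26% higher). With each library's trend on length removed, 2 small RNAs were higher, beside 1.38% of all genes, namely *Snord13* (log2 fold change 2.22, adjusted p = 0.0302) and *Rnu3a* (log2 fold change 1.80, adjusted p = 0.0496), and the median of the 36 was -0.01. The 36 are among only 93 tested genes of at most 218 bases, so that the removed trend partly follows their own values.

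**Figure D5:**
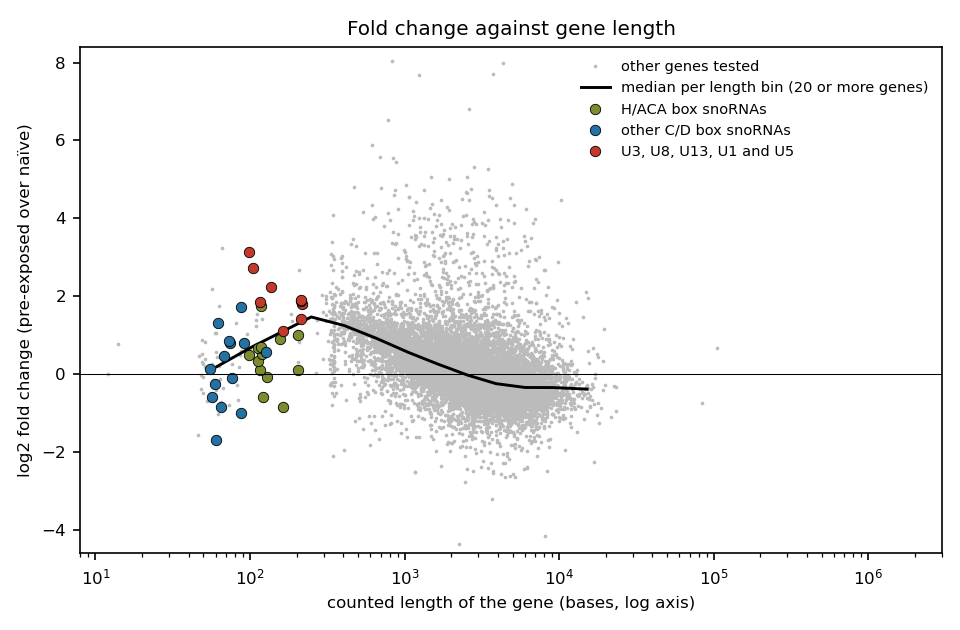
Log2 fold change (pre-exposed over naïve) against the counted length of the gene on a log axis, for 12655 tested genes, with the median per length bin as a line and the 36 small RNAs in colour. *Snord13* and *Rnu3a* lie highest among the small RNAs at 3.14 and 2.72, and the median of all genes is 1.19 at 219 to 600 bases and -0.18 over 2000 bases.

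The 5 calls depended on which mice entered. Without naïve mouse 1 there were 0 calls (0.387% of all genes were higher), and likewise without pre-exposed mouse 2 (0.553%), although the log2 fold changes of the 5 stayed between 1.59 and 3.21. Without naïve mouse 2, 4 or 5 only *Snord13* was called (0.680%, 1.09% and 1.18% of all genes were higher). Without naïve mouse 3 or pre-exposed mouse 4 there were 3 calls (2.30% and 3.78%), and without pre-exposed mouse 3 the same 5 (2.66%). Without pre-exposed mouse 1 there were 10 calls, all higher (9.51%). Without pre-exposed mouse 5 there were 6 higher (9.17%) and 1 lower (5.61%), the lower being *Snord72*.

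Pre-exposed mice 2 to 4 and pre-exposed mice 1 and 5 were also compared with the 5 naïve mice separately, since their label descriptions differ. Both comparisons share the naïve mice. With pre-exposed mice 2 to 4, 10 small RNAs were higher and 4 were lower, beside 14.9% higher and 14.9% lower of all genes. The 4 lower ones were *Snord72*, *Snord47*, *Snora81* and *Snora28*. With pre-exposed mice 1 and 5, 0 were called, beside 0.182% of all genes. At an unadjusted p under 0.05, 11 were higher and 0 lower, beside 13.2% of all genes higher. *Snord13* had a log2 fold change of 2.62 (adjusted p = 0.000237) with mice 2 to 4 and 3.70 (adjusted p = 0.083) with mice 1 and 5.

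*Rnu3a* had 2.21 (adjusted p = 0.000708) with mice 2 to 4 and 3.29 (adjusted p = 0.105) with mice 1 and 5. *Snord47* had -2.78 with mice 2 to 4 (adjusted p = 0.00238) and 0.47 with mice 1 and 5 (adjusted p = 0.674), and *Snora81* -1.81 (adjusted p = 0.00139) and 0.07 (adjusted p = 0.932). The difference between both comparisons was not tested. The erythroid marker sum, at 261, 523, 628, 1265 and 1726 CPM in pre-exposed mice 1 to 5, was highest in mice 4 and 5 and lowest in mouse 1. The sum of U3, U8, U13 and the snRNAs was too, but with mice 2 and 3 in the other order. The γδ T cell marker sum, mostly of genes shared with αβ T cells, was also lowest in mouse 1 (5162 CPM) and highest in mouse 5 (13370 CPM). By contrast, the monocyte and macrophage, dendritic cell and αβ T cell marker sums were lowest in mouse 5 (41.8, 64.7 and 290.7 CPM). Whether any marker sum goes with the small RNAs was not tested.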

How the data were processed

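RNA-sequencing libraries of EM γδ T cells, 1 from each of 5 pre-exposed and 5 naïve mice, were grouped by their sample labels. The authors aligned read pairs to mm10 with Subread, and deposited whole-number counts per Entrez gene, made with featureCounts over the NCBI annotation that comes with Subread, without normalization. The other deposited column gives the gene length in bases. Tool versions and whether strand was used in counting were not given in the sources used here. Reads over both a snoRNA and its host were therefore treated as uncertain. The library kit is a SMART kit in the paper and an Illumina TruSeq kit in the labels. Nothing shows that the replicates were prepared independently, so p-values measure the spread between these libraries.

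Genes were filtered with filterByExpr (13534 of 27179 kept), genes without a symbol (767) or of immunoglobulins (112) were left out, and 12655 were tested in edgeR 4.0.16 under R 4.3.3 by quasi-likelihood (TMM scaling, robust, all 10 libraries in 1 fit, no covariate). The Benjamini-Hochberg adjustment was used, and a gene was called at an adjusted p under 0.05. The SE is the absolute log2 fold change over the root of the F statistic. Levels are CPM, computed here. Symbols and positions came from RefSeq (GRCm38.p6) by Entrez ID (25275 matched), and hosts and sequences from GENCODE M21. Alternatives used limma 3.58.1 (voom, and TREAT with 1.5 as its minimum fold, with or without sample weights; the study names TREAT, but whether it weighted samples is not given in the sources used here), DESeq2 1.42.0, other scalings and filters, the replicate number as a block, the style of the label description as a covariate, a loess trend on length (span 0.3) removed, and libraries left out. The edgeR fit with and without the length trend removed, TREAT with and without sample weights, and DESeq2 were run on simulated counts with known fold changes. The simulation had the same dispersion for every gene, no trend on length and no filter. The other steps were not tested on simulated data.

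The small RNAs and gene lists were chosen with earlier results of these data known. Named are every small RNA called, the up to 4 tested of each class with the highest mean CPM, the 4 with the smallest p, the 4 with the most negative log2 fold change, their hosts where clear and tested, *Rnu3a* and *Snord13*, and the snoRNP and snRNP genes called. For any other gene, the text says that it was named with its values known. Some host genes and 1 sequence are not reported here. Depth limits precision, and a count of 0 allows up to 3 counts at 95% confidence, for counting error only.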

Additional observations from a re-analysis of the deposited data

Results flagged for a closer look

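In 4 of 30 groups of 5 mice, 1 mouse stood apart from the others by more than Dixon's 95% critical value for groups of 5 (the gap to its neighbour divided by the range). Chance gives about 1 in 20 for independent groups of normally distributed values. The 30 groups come from the same libraries, so 4 of 30 cannot be read as an excess. *Rnu1a1* was at 5.45 CPM in pre-exposed mouse 5, against 1.95 CPM in the next mouse of the group. *Rnu5g* was at 6.18 CPM in pre-exposed mouse 5, against 2.00 CPM in the next. *Snord72* was at 5.27 CPM in pre-exposed mouse 5, against 1.24 CPM in the next. In naïve mice, *Snord72* was at 6.09 CPM in mouse 1, against 3.43 CPM in the next. 3 of the 4 values belong to pre-exposed mouse 5, the library with 24.7% of its counts in 10 genes.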

How the results depend on the processing

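In the main test 5 small RNAs were higher and 0 lower, 6 hosts and 7 snoRNP and snRNP genes were called, and the median log2 fold change was 0.69. The counts of small RNAs, hosts and snoRNP and snRNP genes stayed within 1.5 times with RLE size factors, library totals, and with genes without symbol and immunoglobulin genes kept. The older dispersion method called 4 snoRNP and snRNP genes. A minimum of 10 counts gave 2 lower small RNAs, Snora34 and Snord53. DESeq2 called 7 small RNAs (Snord118 and Rnu3b2 beside the 5), 10 hosts and 12 snoRNP and snRNP genes, where 10.7% of all genes were called. With voom and limma there were 0 higher small RNAs (9 at an unadjusted p under 0.05), 1 host and 0 snoRNP and snRNP genes, where 0.759% of all genes were called. With TREAT there were 0 of each (5 small RNAs higher at an unadjusted p under 0.05, and 0.0158% of all genes called). TREAT with sample weights, added after the data were seen, also gave 0 of each (6 small RNAs higher at an unadjusted p under 0.05, and 2.27% of all genes called), with adjusted p-values of 0.0733 to 0.149 for the 5. The study's own list, reported with TREAT, holds some of these small RNAs, so neither TREAT run reproduced it.

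The replicate numbers did not pair the mice (correlations of deviations of -0.104, -0.129, 0.00115, 0.053 and -0.261, with no library closest to its own number), and with the replicate block 0 small RNAs, 0 hosts and 0 snoRNP and snRNP genes were called (11 small RNAs were higher at an unadjusted p under 0.05). With the description style as a covariate, 1 small RNA (Snord13), 0 hosts and 0 snoRNP and snRNP genes were called. With the length trend removed, 2 small RNAs, 0 hosts and 0 snoRNP and snRNP genes were called, and the median was -0.01. With the replicate block and the length trend removed, all 3 counts were 0 and the median was -0.02. With pre-exposed mice 1 and 5 alone, all 3 counts were 0. With pre-exposed mice 2 to 4 alone, 10 small RNAs were higher and 4 lower, 10 hosts and 21 of 73 snoRNP and snRNP genes were called, where 29.8% of all genes were called, and 5 ratios of snoRNA to host were below the naïve range, against 2 with all mice (an alternative added after the data were seen). The cause of these changes was not tested.

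Leaving out 1 mouse at a time gave 0 to 10 higher and 0 to 1 lower small RNAs, 0 to 10 hosts, 0 to 14 snoRNP and snRNP genes, medians of 0.60 to 0.80 and 2 to 3 ratios below the naïve range. Of the named genes, none that was called in the main test changed sign. Uncalled ones that did were, with the description style as a covariate, Eif5 (0.13), Snora31 (-0.29), Snora81 (0.02) and Snord47 (0.41). With the length trend removed these were Eif5 (0.08), Snora31 (-0.11) and Snora41 (-0.38). With the replicate block as well they were Snora31 (-0.18), Snora41 (-0.33) and Tpt1 (-0.02). With pre-exposed mice 1 and 5 they were Eif5 (0.19), Snora31 (-0.25), Snora81 (0.07) and Snord47 (0.47). Depth limits the rest, since 66 of the 102 small RNAs had at most 143 counts over 10 libraries and were not tested.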

Other observations

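Some short RNAs with their own promoters have symbols that the rule for the small RNAs does not take (*Rnu2-10* for its hyphen), and are named after their values were seen. *Rn7sk*, the 7SK RNA that holds back the elongation factor P-TEFb, had 3.23, 8.71, 7.40, 6.73 and 30.2 CPM in pre-exposed mice 1 to 5, against 1.17, 1.91, 4.57, 3.31 and 2.60 CPM in naïve mice 1 to 5 (log2 fold change 1.98, edgeR adjusted p = 0.0534). *Vaultrc5*, a vault RNA, had 1.52, 6.33, 3.66, 2.50 and 18.9 CPM in pre-exposed mice 1 to 5, against 2.05, 2.17, 2.22, 1.54 and 1.01 CPM in naïve mice 1 to 5 (log2 fold change 1.68, edgeR adjusted p = 0.109). *Rny1*, a Y RNA, had 0.476, 2.24, 1.43, 1.11 and 7.27 CPM in pre-exposed mice 1 to 5, against 0.367, 0.776, 1.28, 0.236 and 0.867 CPM in naïve mice 1 to 5 (log2 fold change 1.54, edgeR adjusted p = 0.181). In each of these, pre-exposed mouse 5 was the highest of the 10 mice and pre-exposed mouse 1 lay within the naïve range. *Rnu2-10*, a gene of the U2 snRNA, had 9.32, 7.79, 11.1, 6.18 and 196 CPM in pre-exposed mice 1 to 5, against 14.5, 22.1, 19.0, 20 and 10.3 CPM in naïve mice 1 to 5 (log2 fold change 1.37, edgeR adjusted p = 0.323). Here pre-exposed mice 1, 2 and 4 lay below every naïve mouse and mouse 3 within the naïve range. Only pre-exposed mouse 5 lay above it. *Rpph1*, the RNA of ribonuclease P, had 2.76, 2.48, 2.07, 1.60 and 0.908 CPM in pre-exposed mice 1 to 5, against 0.294, 0.827, 0.740, 2.72 and 4.77 CPM in naïve mice 1 to 5 (log2 fold change 0.38, edgeR adjusted p = 0.754), with pre-exposed mouse 5 the lowest of its group. None of the 5 passed the threshold.

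The long nuclear RNA *Malat1* was also highest in pre-exposed mouse 5, at 51800 CPM, and lowest in pre-exposed mice 2 to 4, at 1590 to 2870 CPM, against 5800 to 13000 CPM in naïve mice (log2 fold change 0.60, edgeR adjusted p = 0.663).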
